A study of Mus musculus with 9 samples.

Results

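Histone deacetylases remove acetyl groups from lysines of histones and of other proteins. The 10 genes described here, Hdac1 to Hdac9 and Hdac11, were taken by gene symbol from 22180 measured genes in regulatory T (Treg) cells with and without the Hippo kinases Mst1 and Mst2. They were read by 11 probe sets of 41345, since Hdac11 had 2 and each of the other genes 1. Where a gene had several, the probe set of highest mean stood for it. The family was selected on the measured difference between the groups, which was already known, in particular that of Hdac9. That comparison therefore describes the members and is not a test of them.

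Both groups were C57BL/6 mouse CD4+YFP+ cells sorted as CD45.2+ and CD45.1- from bone marrow chimeras. The hosts were RAG1-/- mice, which have no T or B cells of their own, reconstituted 2 months earlier with CD45.1 wild-type marrow and CD45.2 test marrow at 1 to 1. In the wild-type group (n = 5) the test marrow was Foxp3YFP-Cre, and in the null group (n = 4) it was Foxp3YFP-CreStk4f/fStk3f/f. Stk4 encodes Mst1 and Stk3 encodes Mst2. Cre and YFP are therefore carried by both groups, and Cre is driven from the Foxp3 gene, which is active in Treg cells. Total RNA (1 to 20 ng) was amplified, labelled with biotin and read on 1 whole-transcript array per sample. The labels give neither the ages of the mice nor whether each sample was a separate chimera, so errors and p-values cover the spread between these samples. Values are log2 levels, and differences are given as the null mean minus the wild-type mean.

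The family falls into classes. Class I enzymes (Hdac1, Hdac2, Hdac3 and Hdac8) are mainly nuclear, and the first 3 work inside corepressor complexes. Class IIa enzymes (Hdac4, Hdac5, Hdac7 and Hdac9) have little deacetylase activity of their own, bind MEF2 transcription factors, and leave the nucleus when kinases phosphorylate them and 14-3-3 proteins hold them in the cytoplasm. In Treg cells, acetylation stabilises the Foxp3 protein, Hdac7 and Hdac9 have been found in complexes with Foxp3, and mice without Hdac9 have been described as having more suppressive Treg cells. Hdac6 (class IIb) is a cytoplasmic tubulin deacetylase, and Hdac11 is the sole class IV member.

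The labels were examined first. Foxp3 had means of 10.70 ± 0.049 in the wild-type group (SD, n = 5) and 10.72 ± 0.092 in the null group (SD, n = 4). All 6 markers of Treg and CD4 T cells that were read (Foxp3, Il2ra, Ctla4, Ikzf2, Cd4 and Cd3e) lay far above 4.05, the median of all probe sets. That median is used here as a mark for dim signal, since the deposited values do not say which probe sets exceed background. Stk4 was lower in every null sample (7.64 ± 0.15, SD, n = 4) than in any wild-type sample (7.91 ± 0.10, SD, n = 5), as were 4.4% of all genes. Its difference was -0.27 (limma adjusted p = 0.146). The labels do not name the floxed exons, so the deletion cannot be judged from Stk4. Stk3 had no probe set of its own name.

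Hdac9 was the member whose levels stood apart between the groups, and its 2 RefSeq start regions are shown because the other results on Hdac9 are read beside them. Each line is the 250 bases before an annotated start (RefSeq, GRCm38.p6, minus strand, 5′ to 3′). The first lies at chr12:34917096-34917345 and the second at chr12:34528890-34529139, inside the longer gene. Capitals mark a match to the letters searched for MEF2, CTA and TAG with any 4 bases between them. These 4 bases were not required to be A or T, and here they are GCTT.
Hdac9 first start: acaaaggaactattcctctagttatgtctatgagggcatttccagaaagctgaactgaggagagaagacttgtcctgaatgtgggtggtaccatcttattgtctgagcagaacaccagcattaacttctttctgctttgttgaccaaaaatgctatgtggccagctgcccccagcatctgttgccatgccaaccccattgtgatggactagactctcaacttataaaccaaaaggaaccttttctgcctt
Hdac9 second start: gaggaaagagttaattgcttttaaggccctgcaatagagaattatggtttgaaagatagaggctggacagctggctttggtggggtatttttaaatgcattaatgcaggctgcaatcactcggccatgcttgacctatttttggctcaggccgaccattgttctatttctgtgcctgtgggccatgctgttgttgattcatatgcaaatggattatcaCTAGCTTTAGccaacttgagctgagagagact

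Motifs were searched on both strands in windows of 300 bases (250 before and 50 after each start): TTCNNNGAA for STAT5, CTA and TAG with 4 bases between them for MEF2, GGAATG for the Hippo-regulated TEAD factors and TGTTTAC for forkhead factors such as Foxp3. The table of RefSeq start regions used here matched 8 of the 10 genes, with 12 windows. Hdac1 and Hdac3 were not matched in it. The MEF2 letters stood in 3 of the 12 windows, at Hdac2, at Hdac5 and at the second Hdac9 start, where the match begins 32 bases before the start. Over all 32851 windows, 3.69% held them. The STAT5 letters were in 2 windows, both of Hdac7 (8.3% of all windows), the TEAD letters in 4 (14.7%), and the forkhead letters in 1, of Hdac7 (3.65%). Neither Hdac9 window held any of these 3, and no matches overlapped there. The Hdac9 windows were also poor in CG pairs, with 0 and 3, against 5 to 36 in the other 10 member windows and a median of 7 over all windows. These are matches of letters and not shown to be bound sites.

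Hdac9 was 4.63, 4.40, 4.59, 4.45 and 4.48 in wild-type arrays 1 to 5 and 4.11, 4.07, 4.18 and 4.02 in null arrays 1 to 4. Every null array was therefore lower than every wild-type array. The means were 4.51 ± 0.096 (SD, n = 5) and 4.09 ± 0.068 (SD, n = 4), a difference of -0.42 ± 0.068 (SE), with a 95% interval from -0.57 to -0.27, or a level 1.34-fold lower. The null mean lay close to the mark for dim signal, so the size of this fold is uncertain. In sorted cells measured in bulk, fewer cells with the transcript and less transcript per cell cannot be told apart.

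Of the 10 members, Hdac9 alone was among the 515 genes (2.32%) that passed limma at an adjusted p below 0.05 over all 22180 genes, and it was one of the 420 (1.89%) that fell in null samples, while 0.428% of all genes rose. It was also the single member whose groups did not overlap, as was the case for 6.16% of all genes (4.4% with wild type above and 1.76% with null above). Since the family was chosen with this comparison known, nothing is read from these counts. Without null arrays 2 and 4 together, Hdac9 no longer passed (difference -0.37).

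**Figure D1:**
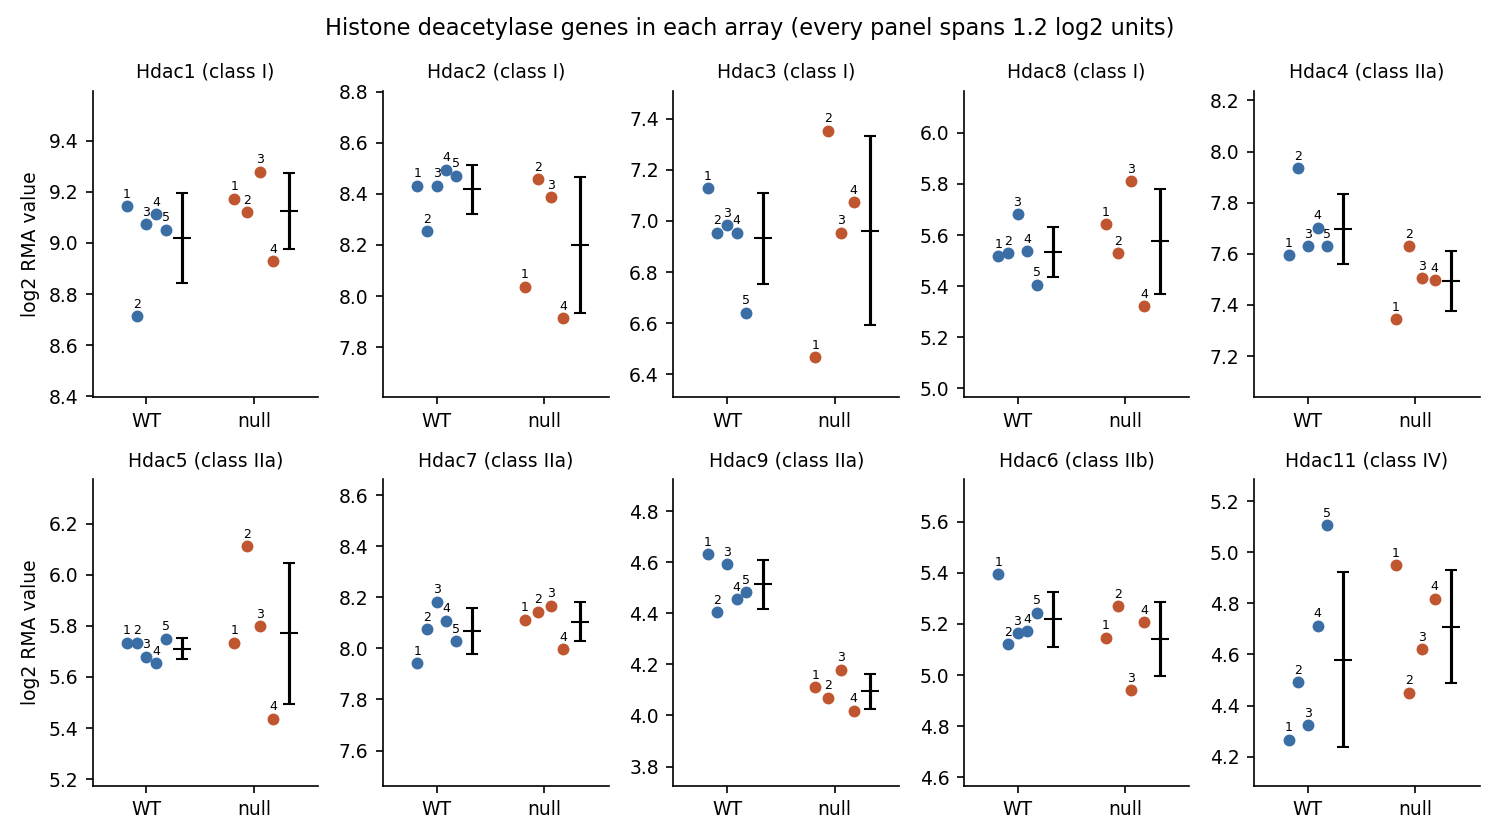
Log2 RMA values (vertical axes, each spanning the same width) of the 10 histone deacetylase genes in 5 wild-type arrays (WT, blue) and 4 null arrays (orange). Points are arrays with their replicate number, and black bars are mean ± SD. Hdac9 is the panel without overlap: its wild-type arrays span 4.40 to 4.63 and its null arrays 4.02 to 4.18.

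The other class IIa genes showed smaller differences. Hdac4, a MEF2 repressor known from bone and muscle, was 7.60, 7.93, 7.63, 7.70 and 7.63 in wild-type arrays 1 to 5 and 7.34, 7.63, 7.51 and 7.50 in null arrays 1 to 4. Of the null arrays, 1, 3 and 4 lay below all wild-type arrays, and null array 2 had the same value as wild-type arrays 3 and 5. The difference was -0.20 ± 0.087 (SE), with a 95% interval from -0.40 to -0.012. Hdac4 did not pass the limma test, and the difference was -0.15 without wild-type array 2, which held the highest value.

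Hdac7 is the class IIa enzyme best known from thymocytes, where it represses genes of negative selection. Its wild-type arrays spanned 7.94 to 8.18 and its null arrays 7.997 to 8.17, the narrowest spread of the 10 genes over all arrays (0.24). The difference was 0.037 with a 95% interval from -0.11 to 0.19.

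Hdac5, the fourth class IIa gene, differed in its spread more than in its mean. It was 5.73, 5.73, 5.68, 5.65 and 5.75 in wild-type arrays 1 to 5, an SD of 0.041, and 5.73, 6.11, 5.80 and 5.44 in null arrays 1 to 4, an SD of 0.28. Null array 2 lay above and null array 4 below all wild-type arrays. The difference of 0.060 had a 95% interval from -0.19 to 0.31 and turned to -0.054 without null array 2.

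**Figure D2:**
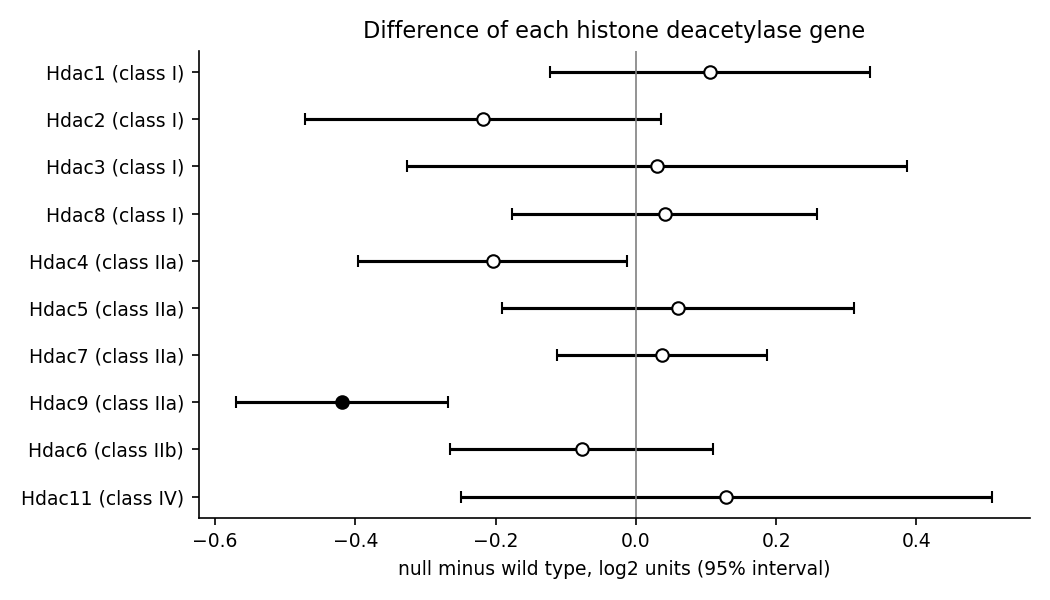
Null minus wild type (horizontal axis, log2 units) for each member, with 95% intervals from limma over 5 wild-type and 4 null arrays. The filled point, Hdac9 at -0.42, passed limma over all genes. Intervals of Hdac4 (to -0.012) and Hdac9 (to -0.27) lie below 0, and the other 8 include 0.

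Among class I genes, Hdac1 and Hdac2 are close paralogs that act in the same NuRD, Sin3 and CoREST complexes. Hdac1 was 9.14, 8.71, 9.07, 9.11 and 9.05 in wild-type arrays 1 to 5 and 9.17, 9.12, 9.28 and 8.93 in null arrays 1 to 4. The groups overlapped (difference 0.11, 95% interval from -0.12 to 0.33). Wild-type array 2 was the low one, and without it the difference was 0.029.

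Hdac2 was 8.43, 8.26, 8.43, 8.49 and 8.47 in wild-type arrays 1 to 5 and 8.04, 8.46, 8.39 and 7.91 in null arrays 1 to 4. Null arrays 1 and 4 lay below all wild-type arrays, while null arrays 2 and 3 lay within their range. The difference was -0.22 ± 0.11 (SE), with a 95% interval from -0.47 to 0.036, and Hdac2 did not pass the limma test. It ranged from -0.30 to -0.12 when single arrays were left out (without null array 2 and without null array 4).

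Hdac3 is the catalytic subunit of a nuclear receptor corepressor complex. It was 7.13, 6.95, 6.98, 6.95 and 6.64 in wild-type arrays 1 to 5 and 6.47, 7.35, 6.95 and 7.07 in null arrays 1 to 4. The null group held both the lowest and the highest array, and the 95% interval of the difference (0.030) was wide, from -0.33 to 0.39. Its direction depended on single arrays, from -0.10 without null array 2 to 0.19 without null array 1. Hdac8, a class I enzyme that deacetylates the cohesin subunit Smc3, spanned 5.41 to 5.68 in the wild-type arrays and 5.32 to 5.81 in the null arrays. Its difference was 0.041 (95% interval from -0.18 to 0.26), and turned to -0.037 without null array 3.

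Hdac6 spanned 5.12 to 5.39 in the wild-type arrays and 4.94 to 5.27 in the null arrays, with a difference of -0.077 (95% interval from -0.26 to 0.11), or -0.010 without null array 3 and -0.12 without null array 2. Hdac11 was the most variable member in wild type, from 4.27 in array 1 to 5.11 in array 5 (SD 0.34, n = 5), and lay from 4.45 to 4.95 in null samples (SD 0.22, n = 4). Its difference was 0.13 (95% interval from -0.25 to 0.51), or 0.26 without wild-type array 5 and 0.049 without null array 1. The second Hdac11 probe set was 4.21 ± 0.12 (SD, n = 5) and 4.22 ± 0.023 (SD, n = 4), with a difference of 0.013 (95% interval from -0.15 to 0.17). Both probe sets thus overlapped between groups.

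Of the 10 family members, 4 had a lower mean in null samples (49.3% of all genes), and the median difference was 0.034, beside 0.0023 over all genes. The median size of the difference, whatever its sign, was 0.091, beside 0.088 over all genes. In 5 of 10 the SD was larger in null samples (59.2% of all genes). All 10 had both group means at or above the median of all probe sets (49.99% of all genes), so none was lost by a filter on dim genes. In 4 of the 10, at least 2 arrays had identical values, as in 56.6% of all genes.

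Several members varied between arrays of one group. Null array 2 exceeded null array 4 in 9 of 10 members (54.1% of all genes), by 0.67 for Hdac5, 0.54 for Hdac2 and 0.050 for Hdac9, and Hdac11 was the exception (-0.37). This contrast was noticed after the values were seen. Hdac9 and Hdac4 lay below the wild-type mean in all 4 null arrays, whereas all other members had null arrays on both sides of it.

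**Figure D3:**
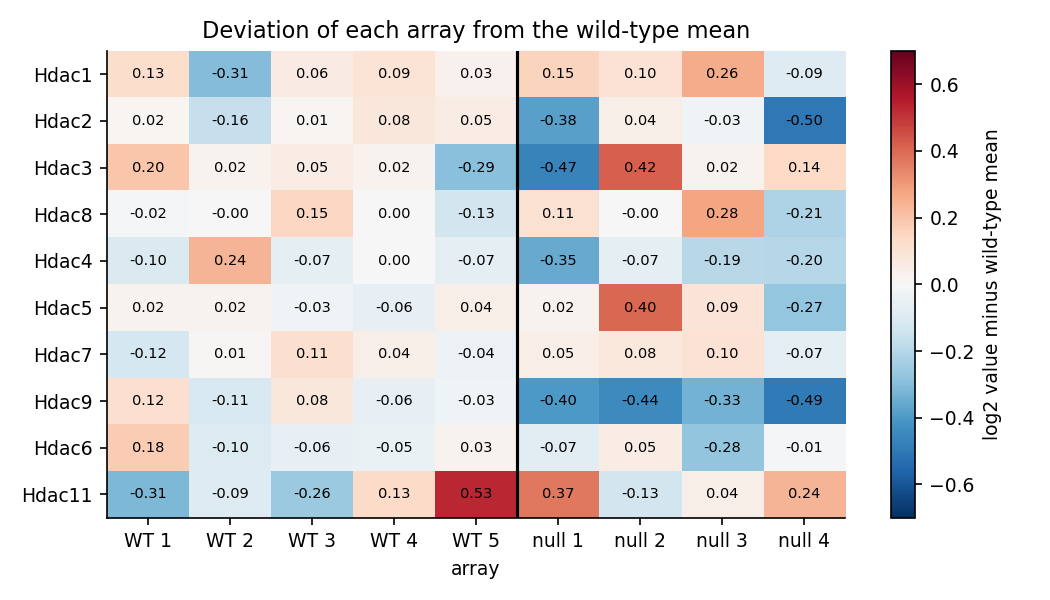
Log2 value of each array (columns) minus the wild-type mean of that gene (rows), with blue below and red above the mean. The Hdac9 row is low in all 4 null arrays, while Hdac2 is low in null arrays 1 and 4 and Hdac5 is high in null array 2.

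Signs of other cells and of handling were read in the same arrays. Myeloid markers (6 of 6 read, 3 of them below the median of all probe sets in both groups) had mean levels of 4.13 to 4.44 in the wild-type arrays and 4.46 to 4.85 in the null arrays. All 6 had a higher mean in null samples, and none passed the limma test. B cell markers (5 of 6 read, 0 passed) lay from 4.54 to 5.39 and from 4.79 to 5.59, CD8 markers (2 of 2, 0 passed) from 5.15 to 5.68 and from 5.63 to 6.19, and NK markers (3 of 3, 0 passed) from 2.86 to 3.09 and from 2.92 to 2.998. Of these, 5 of 5 B cell, 2 of 2 CD8 and 2 of 3 NK markers had a higher mean in null samples. The mean of the Treg and CD4 list was lower in every null array, from 9.70 to 9.86 against 9.98 to 10.06. Of its 6 genes 1 passed the test, Ikzf2, which encodes the transcription factor Helios (difference -0.72). In 2 of the 6, Foxp3 (difference 0.014) and Il2ra (0.056), the mean was higher in null samples. The mean of the heat shock genes Hspa1a and Hspa1b was 5.94 in wild-type array 1, 3.06 in wild-type array 2 and 3.70 in null array 1, and from 8.56 to 10.21 in the other 6 arrays. With that level as a covariate the Hdac9 difference was -0.42. The part of the other cell markers in the Hdac9 difference was not tested.

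The other genes of lysine acetylation were read from lists set by known function, and tested over all genes. The lists were chosen with earlier results of these data known. None of the 89 measured genes in 6 lists passed limma over all 22180 genes. At an unadjusted p below 0.05 there were 19 (21.3%), 4 higher and 15 lower in null samples, beside 14.9% of all genes. Lower was also the more frequent direction among all genes that passed limma (1.89% of all genes fell and 0.428% rose). Nothing is therefore read from that split. The unadjusted share was not counted by direction over all genes, nor among genes above the mark for dim signal. Groups did not overlap for 3 genes with wild type above (4.4% of all genes) and 1 with null samples above (1.76% of all genes). The median difference over the 89 genes was -0.043, beside 0.0023 over all genes. Among genes with either group mean at or above the mark for dim signal, the median was -0.036. The counts and medians of the single lists below are to be read beside these medians and the 14.9%.

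The smallest adjusted p among the 89 genes was that of Mef2d, in the list of class IIa partners and export kinases. Of 24 measured genes in that list 0 rose and 0 fell by limma, with a median difference of -0.052. At an unadjusted p below 0.05 were 6 (25%, beside 14.9% of all genes). Mef2d, a MEF2 factor repressed by class IIa enzymes, was 8.80, 8.55, 8.72, 8.69 and 8.72 in wild-type arrays 1 to 5 and 8.97, 9.02, 8.99 and 8.90 in null arrays 1 to 4. Each null array lay above each wild-type array. The difference was 0.28 ± 0.065 (SE, limma adjusted p = 0.0603). That p lay between 0.0227 and 0.237 over 18 alternatives, 3 of which called it. Mef2a (difference 0.038) and Mef2c (0.71 ± 0.40, SE), both picked out with their values in view, did not pass either.

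Acetyltransferases, which add the marks that deacetylases remove, had 0 of 13 genes past the limma test (2 at an unadjusted p below 0.05, median -0.034). Ncoa1, a coactivator of nuclear receptors, was 7.59, 7.46, 7.63, 7.53 and 7.48 in wild-type arrays 1 to 5 and 6.92, 7.26, 7.14 and 7.37 in null arrays 1 to 4, again without overlap. Its difference was -0.37 ± 0.090 (SE, limma adjusted p = 0.0704, from 0.0231 to 0.222 over 18 alternatives). Ncoa1 passed in 4 of the 18. One was the fit without null array 4, the null array closest to wild type, at -0.43 (limma adjusted p = 0.0361). It did not pass when any other single array was left out. Kat5, which encodes the Foxp3 acetyltransferase Tip60, had a difference of -0.034, and Ep300, which encodes p300, of -0.036. Both were named after their values were seen.

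Subunits of the Hdac1 and Hdac2 complexes were measured for 28 of 29 genes, of which 0 passed by limma (median -0.060). An unadjusted p below 0.05 was found for 7 (25%, beside 14.9% of all genes). Suds3, a Sin3 complex subunit, had the smallest p of this list (difference -0.50 ± 0.16, SE, limma adjusted p = 0.156). Its values in null arrays 1 to 4 were 7.04, 7.81, 7.15 and 7.73, and in wild type they lay between 7.78 and 8.09, so null array 2 overlapped with wild type. Of the Hdac3 corepressor complex 3 of 5 genes were measured, and Gps2, a subunit that restrains JNK signalling, came first (0.29 ± 0.11, SE, limma adjusted p = 0.220), with 1 gene at an unadjusted p below 0.05 and 0 past the limma test.

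The 8 other deacetylases, Hdac10 and the 7 NAD-dependent sirtuins, had 0 past the limma test (median -0.058). There were 2 at an unadjusted p below 0.05 (25%, beside 14.9% of all genes). Sirt2, a mainly cytoplasmic tubulin deacetylase, had a difference of -0.31 ± 0.10 (SE, limma adjusted p = 0.168), and Hdac10 one of 0.22 ± 0.11 (SE). Readers of acetyl-lysine had 0 of 13 past the limma test and 1 at an unadjusted p below 0.05 (median 0.032), the bromodomain ATPase gene Atad2 (-0.28 ± 0.089, SE, limma adjusted p = 0.154).

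**Figure D4:**
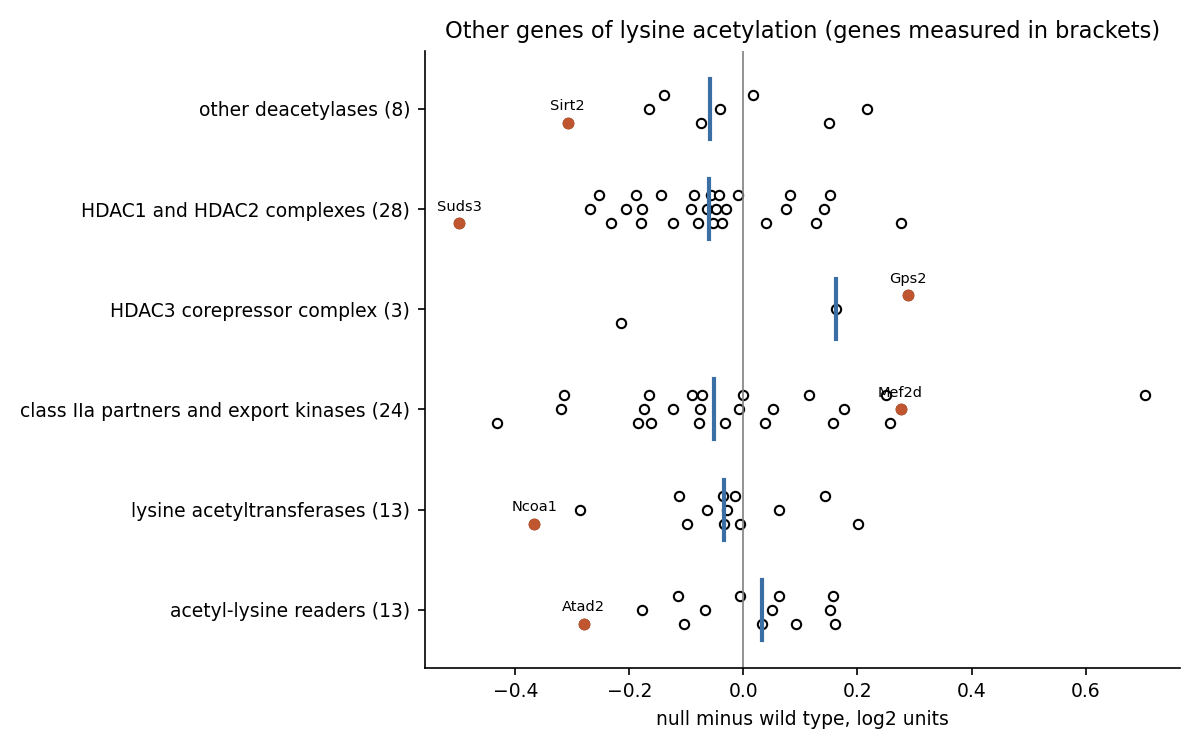
Null minus wild type (horizontal axis, log2 units) of 89 other genes of lysine acetylation in 6 lists. Points are genes, blue bars are list medians, and the named orange points have the smallest p of their list. No gene passed limma over all genes, and the list medians lie between -0.060 and 0.16.

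Hdac9 lies beside other genes that were lower in null samples. Among the 5 measured genes on either side of each member in RefSeq gene order, 2 of the 10 beside Hdac9 fell by limma over all genes (1.89% of all genes), and 0 of 90 beside the other 9 members. At an unadjusted p below 0.05 there were 4 of 10 and 8 of 90, beside 14.9% of all genes, and the 4 included Atxn7l1, whose mean was higher in null samples (difference 0.19). The difference between these counts was not tested. Nearest was Prps1l1, a phosphoribosyl pyrophosphate synthetase gene known from testis, which was 5.21, 5.77, 4.64, 4.78 and 4.55 in wild-type arrays 1 to 5 and 3.72, 3.87, 4.20 and 3.62 in null arrays 1 to 4. The groups did not overlap (difference -1.14 ± 0.23, SE, limma adjusted p = 0.0338). Null arrays 1, 2 and 4 lay below the mark for dim signal, so the size of this difference is uncertain. Next came Snx13, a sorting nexin gene, which fell from 7.63 ± 0.21 (SD, n = 5) to 7.06 ± 0.19 (SD, n = 4), also without overlap (difference -0.57, limma adjusted p = 0.0422).

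Both calls were fragile. Prps1l1 passed in 9 of 18 alternatives and Snx13 in 5 of 18, with limma adjusted p between 0.0199 and 0.149 and between 0.0201 and 0.197. Prps1l1 was lost without any one of wild-type arrays 1, 3 and 4 and null arrays 1, 2 and 4 (differences from -1.22 to -1.06), and Snx13 was lost without any single array (differences from -0.64 to -0.47). Both kept a negative difference in all 18, but leaving out arrays could not turn that sign, since their groups did not overlap. The other immediate neighbour, Twist1, a helix-loop-helix factor gene, had a difference of -0.098 at levels below the median of all probe sets. Over 15 genes on either side, 3 of 30 passed, the third being F730043M19Rik (-0.49, called in 4 of 18 alternatives), beside 2.32% of all genes. Ahr, the aryl hydrocarbon receptor gene, had a difference of -0.72 ± 0.24 (SE) and did not pass. The neighbourhood was examined after the values of Hdac9 were known, and any part of linked DNA in these differences was not tested.

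**Figure D5:**
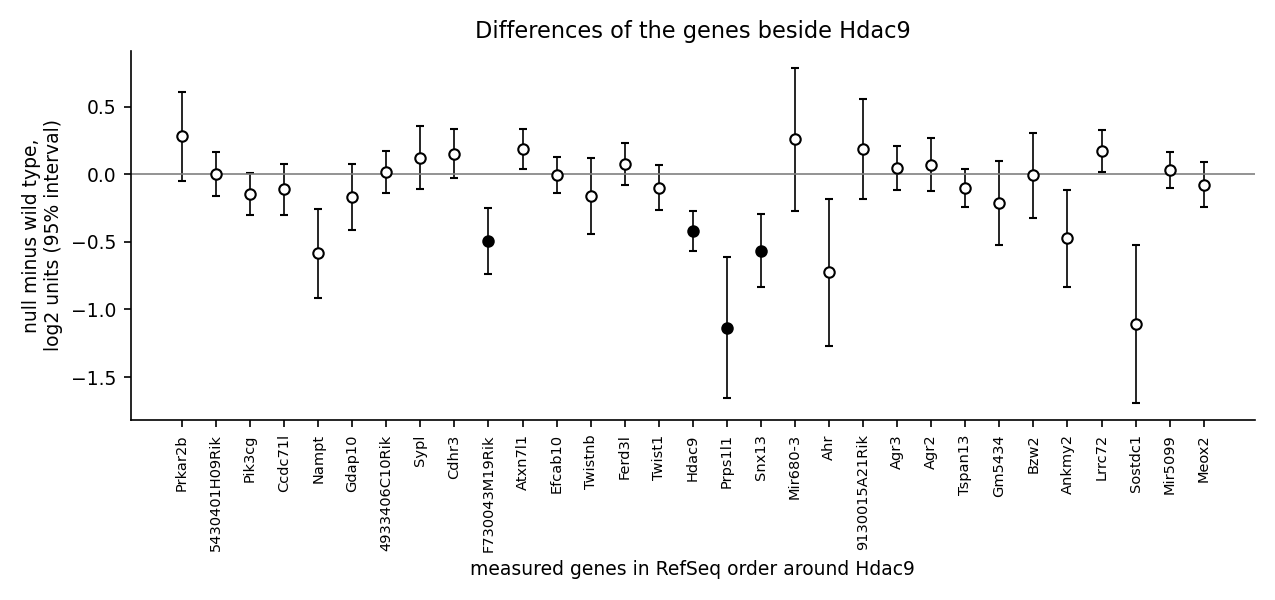
Null minus wild type (vertical axis, log2 units, 95% intervals) of Hdac9 and the 15 measured genes on either side in RefSeq order, over 5 wild-type and 4 null arrays. Filled points passed limma over all genes: Hdac9 (-0.42), Prps1l1 (-1.14), Snx13 (-0.57) and F730043M19Rik (-0.49).

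The genes whose profile over the 9 arrays lay closest to that of Hdac9 were found by the mean absolute difference between profiles centred on each gene's own mean. They were Kif1c, a kinesin motor gene (0.057 log2 units), Eif4b, a translation initiation factor gene (0.065), Srp72, of the signal recognition particle (0.065), B4galt1, a galactosyltransferase gene (0.067), and Inpp5f, a phosphoinositide phosphatase gene (0.067). The 100th closest gene lay at 0.098 and the median gene at 0.23. Kif1c had means of 5.85 ± 0.075 in wild-type arrays (SD, n = 5) and 5.49 ± 0.029 in null arrays (SD, n = 4). The null minus wild type differences of the 5 genes lay between -0.45 and -0.30. Kif1c, Srp72 and Inpp5f passed limma over all genes, as did 2.32% of all genes, and Eif4b and B4galt1 did not. Since the 5 genes were chosen for their likeness to Hdac9 in these same arrays, nothing is read from their differences or calls.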

How the data were processed

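The authors deposited log2 values. The submitters' processing notes name RMA and Affymetrix Expression Console 1.1. RMA subtracts background, brings all arrays to one distribution and summarises the probes of a probe set. Sample medians lay between 3.99 and 4.08. Precision is limited by how many arrays there are. Probe sets with 1 symbol (23521 of 41345) were named from the platform annotation, and symbols were updated through Entrez identifiers (23328 matched, GRCm38.p6, used for names, gene order and start regions). The build behind the array is not given in the labels or files. The brightest probe set stood for a gene.

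Groups were compared with limma 3.58.1 (lmFit and eBayes, R 4.3.3), two-sided, with Benjamini-Hochberg adjustment over all genes. On simulated data for 22180 genes it recovered 65% of genes raised by 0.5 log2 units, 87.5% of those raised by 1 and 100% of those raised by 2. Of genes lowered by 0.5 and by 1 it recovered 65% and 90%, and there were 7 false calls. Noise was simulated independently for each gene, so variation shared between genes of an array was not covered. Members and lists were chosen with earlier results of these data known. Named genes were the members, the gene of smallest p in each list (or all past the threshold), Foxp3, Stk4 and the 5 profiles closest to Hdac9. Other genes were named with their values in view. Lists of other genes are those of the other deacetylases, the complexes of Hdac1 and Hdac2 and of Hdac3, class IIa partners, acetyltransferases and readers. None of 4 erythroid markers was read by a probe set of a single symbol. Alternatives are given in the closing section. Plots used Python 3.11.15 with matplotlib 3.10.9.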

Additional observations from a re-analysis of the deposited data

Results flagged for a closer look

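Wild-type array 2 stood apart from the other wild-type arrays for Hdac1, at 8.71, which was 0.34 below the next array and 78.4% of the group's range, and for Hdac2, at 8.26, which was 0.18 below the next and 73.8% of the range. Both exceed the 95% critical value for 5 samples (0.71 of the range). Chance gives about 1 in 20 such groups, and 20 groups were examined. The same array had the lowest mean of Hspa1a and Hspa1b (3.06) and the highest Hdac4 value (7.93). The part of that in these values was not tested.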

How the results depend on the processing

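The Hdac9 difference kept its sign and moved by less than the spread between replicates under all 18 alternatives, from -0.45 to -0.37. It lay from -0.45 to -0.39 when single arrays were left out. Since its groups did not overlap, leaving out arrays could not turn the sign. Averaging probe sets, the filter on dim genes and trend and robust eBayes do not alter its values, and the difference stayed at -0.42. The limma call of Hdac9 was lost in 2 of the 18. These were the block for the replicate number (difference -0.43, adjusted p = 0.0710) and the fit without null arrays 2 and 4 together (-0.37, adjusted p = 0.0562). The replicate numbers did not pair the samples: correlations of same-numbered arrays about their group means were 0.042, -0.11, 0.011 and 0.041, and 178 genes passed with the block, against 515 without it, of which 162 passed in both. Wild-type array 5 has no partner number, so the block also takes it out of the comparison. Over all genes, leaving out single arrays gave from 271 to 594 calls. Signs of Hdac3, Hdac5 and Hdac8, which did not pass, turned in 6, 1 and 1 of the 18. The family's median difference lay between -0.077 and 0.11. Of the 89 list genes, 2 passed with the filter on dim genes (Mef2d and Ncoa1; fewer genes tested), 1 after quantile normalisation and 1 with trend and robust eBayes (Mef2d in both), 1 with array weights (Ncoa1), and 2 without null arrays 2 and 4 (Suds3 and Ncoa1). Leaving out single arrays gave from 0 to 1 (Sik2, an export kinase, without null array 2, at -0.39; Ncoa1 without null array 4). With the block, 0 passed. The cause of these changes was not tested.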

Other observations

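Farther along the gene order from Hdac9, Sostdc1, a secreted antagonist of BMP and Wnt signals, had means of 6.35 ± 0.50 in wild-type arrays (SD, n = 5) and 5.25 ± 0.42 in null arrays (SD, n = 4), without overlap. Its difference of -1.11 ± 0.26 (SE) did not pass limma (adjusted p = 0.0626). Nampt, the enzyme gene that supplies NAD to sirtuins, was 6.46 ± 0.11 (SD, n = 5) and 5.88 ± 0.37 (SD, n = 4), also without overlap (difference -0.58, limma adjusted p = 0.0775). Both genes were named after their values were seen.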
